A study of Mus musculus with 2 samples.

Results

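The circadian clock genes Dbp, Tef, Per1, Per2, Per3, Nr1d1, Nr1d2, Ciart, Cry1 and Clock were followed across the cell classes of the 5xFAD mouse hippocampus. These 10 genes, chosen by symbol from the 53717 features of the gene list, were picked with results of these libraries already known, so the difference between the libraries is given as a description. In mouse cells the activators CLOCK and BMAL1 (gene Arntl in these files) bind E-box motifs and drive the Per, Cry, Nr1d1, Nr1d2, Ciart, Dbp and Tef genes. PER, CRY and CIART proteins repress these activators, the REV-ERB receptors NR1D1 and NR1D2 repress Arntl, and the PAR bZIP factors DBP and TEF act at D-box motifs. The levels of these transcripts go up and down over the day, and Dbp, Tef, the Per genes, Nr1d1, Nr1d2 and Ciart peak near each other in mouse tissues, so together they mark the phase of the clock.

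Both libraries came from 5xFAD mice, a transgenic line used as a model of Alzheimer disease, and each pooled hippocampi of 3 mice per the series text. The NeuroD1 library came from mice given AAV9-GFAP::NeuroD1-P2A-GFP, which carries the neurogenic factor NeuroD1 joined to GFP. The GFP library came from mice given AAV9-GFAP::GFP. Both vectors use a GFAP promoter, active mainly in astrocytes, and tissue was taken 3 weeks after injection. The labels also give a time of 6 months, without saying what it counts from, and the sources used here do not give the time of day. With 1 library per group no difference was tested, and the intervals below cover counting error only.

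The libraries stood apart in ways that the labels do not name. The NeuroD1 library held 12786 kept cells with a median of 2556 UMIs (unique transcript counts), and the GFP library 11079 cells with a median of 1168. Xist, the transcript of the inactive X chromosome, stood at 0.0413 counts per 1000000 UMIs (CPM) in the NeuroD1 library, against 103 CPM in the GFP library, and Y-linked Ddx3y at 69.5 and 0.0618 CPM, so the sex of the pooled mice moved with the library. Vector GFP had 627 UMIs in the NeuroD1 library, against 25290 in the GFP library, the vector NeuroD1 feature had 0 UMIs in both, and 99 cell barcodes occurred in both. Vector, sex, time of collection and library cannot be told apart in any value below.

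Clusters were named from marker genes, and 8 classes held at least 100 cells in each library. In the order NeuroD1 library then GFP library, there were 3679 and 2162 astrocyte-like cells, 3155 and 2275 oligodendrocyte-like, 1232 and 4200 microglia-like, and 169 and 166 border macrophage or monocyte-like. There were 2041 and 1024 endothelial-like cells, 805 and 495 pericyte or smooth muscle-like (mural-like), 878 and 255 choroid plexus-like, and 172 and 199 neuron-like. UMIs of each gene were summed over the cells of a class and divided by all UMIs of that class, and the ratio is the CPM of the NeuroD1 library over that of the GFP library.

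The clock genes did not differ in the same direction in every class. Of 80 gene and class pairs, 62 had at least 20 UMIs in both libraries together; 17 of them were at least 1.5-fold lower in the NeuroD1 library, against 17 were at least 1.5-fold higher. Over all genes and the same classes, 20% of 81109 pairs were at least 1.5-fold lower and 20.4% at least 1.5-fold higher. Mural-like cells held 7 of the higher pairs and microglia-like cells 5, while astrocyte-like cells held 4 of the lower pairs and no higher pair. The median log2 ratio over the 48 pairs of the genes that peak together (Dbp, Tef, Per1, Per2, Per3, Nr1d1, Nr1d2 and Ciart) was -0.31, with an order-based interval over the pairs, which are not independent, of -0.55 to 0.23.

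**Figure D1:**
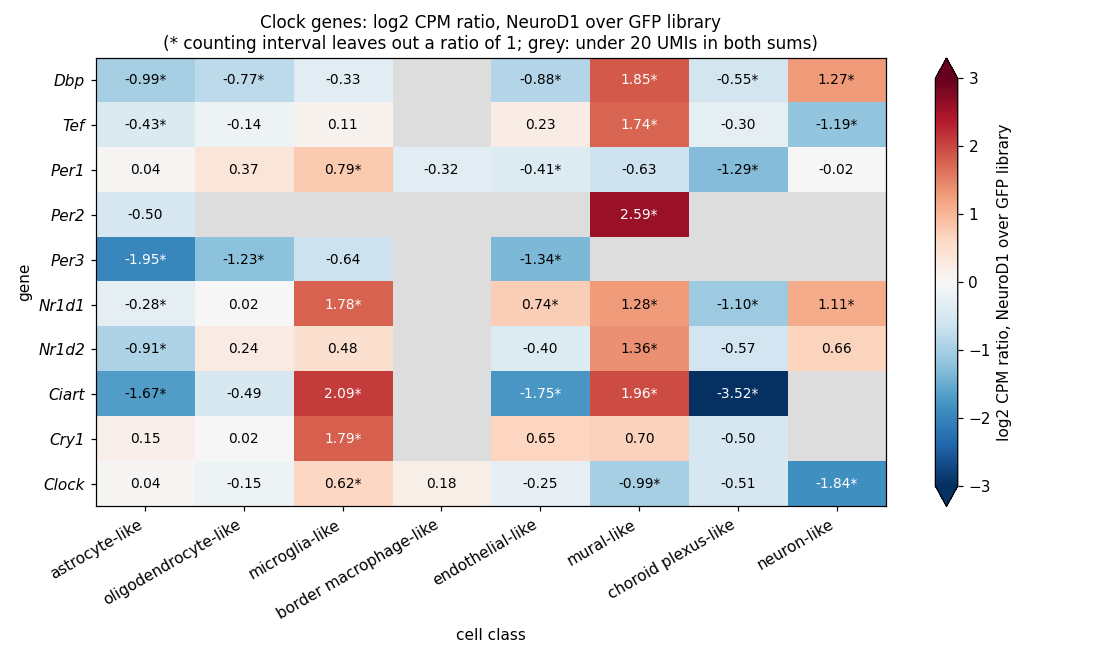
Log2 of the CPM ratio (NeuroD1 over GFP library) for the 10 clock genes (down the page) in 8 cell classes (across). An asterisk marks a 95% counting interval that leaves out a ratio of 1, and grey marks under 20 UMIs; the mural-like column is mostly above 0 (Dbp 1.85, Tef 1.74) and the astrocyte-like column mostly at or below 0 (Dbp -0.99, Per3 -1.95).

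The promoters below belong to the genes whose ratios the results turn on. Ciart had the widest span of ratios over the classes, Per3 was lower in each of the 4 classes where it had enough UMIs, and Dbp and Nr1d1 had the most UMIs of the 10 genes. Each is a RefSeq window on GRCm38.p6, 5′ to 3′ on the strand of the gene, of 250 bases before to 50 after its start, with CACGTG (E-box) and TTATGTAA or TTACGTAA (D-box) in capitals, searched on both strands. Ciart lies at chr3:95882179-95882478 on the minus strand and Per3 at chr4:151044616-151044915 on the minus strand. Dbp lies at chr7:45704997-45705296 on the plus strand and Nr1d1 at chr11:98775328-98775627 on the minus strand.
Ciart: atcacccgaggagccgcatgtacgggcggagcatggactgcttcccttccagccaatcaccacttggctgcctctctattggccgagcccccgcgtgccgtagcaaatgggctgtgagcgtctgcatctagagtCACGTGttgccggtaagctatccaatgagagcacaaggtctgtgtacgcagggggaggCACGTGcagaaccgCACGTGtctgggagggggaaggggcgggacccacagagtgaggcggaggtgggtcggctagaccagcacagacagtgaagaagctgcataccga
Per3: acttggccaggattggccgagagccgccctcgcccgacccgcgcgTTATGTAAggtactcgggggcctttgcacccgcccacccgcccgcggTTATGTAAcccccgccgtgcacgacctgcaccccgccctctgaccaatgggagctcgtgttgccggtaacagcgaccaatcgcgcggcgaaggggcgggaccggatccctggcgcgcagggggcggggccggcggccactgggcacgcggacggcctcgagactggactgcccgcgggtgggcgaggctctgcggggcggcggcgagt
Dbp: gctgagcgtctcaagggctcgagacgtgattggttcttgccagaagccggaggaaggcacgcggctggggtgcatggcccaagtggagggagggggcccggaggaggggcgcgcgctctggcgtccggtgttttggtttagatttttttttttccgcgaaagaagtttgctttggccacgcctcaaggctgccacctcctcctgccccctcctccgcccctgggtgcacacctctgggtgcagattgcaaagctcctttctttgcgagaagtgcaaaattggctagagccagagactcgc
Nr1d1: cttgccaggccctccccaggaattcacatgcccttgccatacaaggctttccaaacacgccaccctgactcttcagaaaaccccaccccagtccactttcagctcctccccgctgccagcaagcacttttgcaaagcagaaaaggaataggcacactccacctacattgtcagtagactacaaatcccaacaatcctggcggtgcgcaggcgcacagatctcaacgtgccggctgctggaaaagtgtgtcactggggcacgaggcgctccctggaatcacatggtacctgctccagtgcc

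Ciart held 3 copies of CACGTG, between -116 and -39 from its start, a number reached by 0.0883% of the 32851 mouse promoter windows. Per3 held 2 copies of TTATGTAA, between -205 and -151, which 0.0244% of the windows did with either D-box spelling. No E-box and D-box match overlapped in these windows. Windows were at hand for 9 of the 10 genes, 13 windows in all. CACGTG was found in at least 1 window of Tef, Per1, Ciart and Cry1, and a D-box for Per3 only. Over all windows the shares were 7.15% and 1.06%, counted per window and not per gene. Tef and Per1 had 2 windows each and Clock 3, so the gene counts are not directly comparable with these shares. The windows printed for Dbp and Nr1d1 held neither set of letters.

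Dbp, a PAR bZIP activator and a widely used phase marker, was lower in the NeuroD1 library in astrocyte-like cells and higher in mural-like cells. Astrocyte-like cells had 1069 UMIs (90.4 CPM) in the NeuroD1 library, against 527 UMIs (179 CPM) in the GFP library, a ratio of 0.505 (0.455 to 0.562). Mural-like cells had 428 UMIs (315 CPM) in the NeuroD1 library, against 40 UMIs (86.6 CPM) in the GFP library, a ratio of 3.64 (2.63 to 5.17). The highest class of each library was thus a different one, mural-like in the NeuroD1 library and astrocyte-like in the GFP library.

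In 3 further classes Dbp was lower in the NeuroD1 library, with intervals below 1. It stood at 18.8 CPM in the NeuroD1 library, against 34.5 CPM in the GFP library in endothelial-like cells (ratio 0.546, 0.383 to 0.79), and at 9.98 and 17 CPM in oligodendrocyte-like cells (ratio 0.587, 0.42 to 0.827). Choroid plexus-like cells had 23.4 CPM in the NeuroD1 library, against 33.8 CPM in the GFP library (ratio 0.692, 0.493 to 0.997). With Ttr, haemoglobin, mitochondrial and ribosomal protein genes left out of the totals, that ratio was 0.869, so its distance from 1 depended on the scaling. Microglia-like cells had 31 UMIs (12.2 CPM) in the NeuroD1 library, against 94 UMIs (15.5 CPM) in the GFP library, and the interval of their ratio, 0.507 to 1.19, held 1. Neuron-like cells went the other way with 59 UMIs (132 CPM) in the NeuroD1 library, against 16 UMIs (53.5 CPM) in the GFP library, a ratio of 2.47 (1.40 to 4.60). Border macrophage-like cells had 8 and 6 UMIs, too few for a ratio.

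Tef, the close relative of Dbp, shared its direction in mural-like cells and went the other way in neuron-like cells. Mural-like cells had 93 UMIs (68.5 CPM) in the NeuroD1 library, against 9 UMIs (19.5 CPM) in the GFP library, a ratio of 3.52 (1.77 to 7.93). Astrocyte-like cells had 43.4 CPM in the NeuroD1 library, against 58.4 CPM in the GFP library, a ratio of 0.744 (0.625 to 0.89) over the whole class, which did not recur in each of its clusters, as described with that class. Neuron-like cells had 28 UMIs (62.7 CPM) in the NeuroD1 library, against 43 UMIs (144 CPM) in the GFP library, a ratio of 0.436 (0.261 to 0.719), so that Tef and Dbp lay on opposite sides of 1 in that class. The libraries filled different clusters of that class. In the cluster they share the ratio was 0.805 for Tef and 1.38 for Dbp, and each interval held 1. In oligodendrocyte-, microglia-, endothelial- and choroid plexus-like cells the ratio of Tef was between 0.848 and 1.19, with 1 inside each interval. Within single clusters with at least 30 cells of each library, over all classes, Tef could be compared in 15. Its interval lay above 1 in 4 of these, among them both mural-like clusters, and below 1 in 0.

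Nr1d1, which encodes the heme-binding repressor REV-ERBα, was at least 1.5-fold higher in the NeuroD1 library in 4 classes and lower in 1. Mural-like cells had 288 UMIs (212 CPM) in the NeuroD1 library, against 40 UMIs (86.6 CPM) in the GFP library, a ratio of 2.45 (1.76 to 3.50). Microglia-like cells had 98 UMIs (38.6 CPM) in the NeuroD1 library, against 68 UMIs (11.2 CPM) in the GFP library, a ratio of 3.44 (2.5 to 4.76). Endothelial-like cells had 51.8 and 30.7 CPM (ratio 1.69, 1.21 to 2.41), and neuron-like cells 96.3 and 43.5 CPM (ratio 2.22, 1.17 to 4.49). In these 4 classes the intervals of Nr1d1 lay above 1, whereas those of Dbp did so in mural-like and neuron-like cells.

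Choroid plexus-like cells were the class where Nr1d1 was lower, with 12.2 CPM in the NeuroD1 library, against 25.8 CPM in the GFP library, a ratio of 0.473 (0.317 to 0.729). Astrocyte-like cells had 128 CPM in the NeuroD1 library, against 154 CPM in the GFP library, a ratio of 0.826 (0.743 to 0.919), nearer to 1 than that of Dbp. Nr1d2, the second REV-ERB gene, was closer to Dbp there, with 31.0 CPM in the NeuroD1 library, against 58.4 CPM in the GFP library and a ratio of 0.531 (0.442 to 0.641). In mural-like cells Nr1d2 had 124 UMIs (91.3 CPM) in the NeuroD1 library, against 16 UMIs (34.6 CPM) in the GFP library, a ratio of 2.64 (1.56 to 4.76). In the other classes with enough UMIs its ratio ran from 0.684 in choroid plexus-like to 1.62 in neuron-like cells, and each interval held 1.

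**Figure D2:**
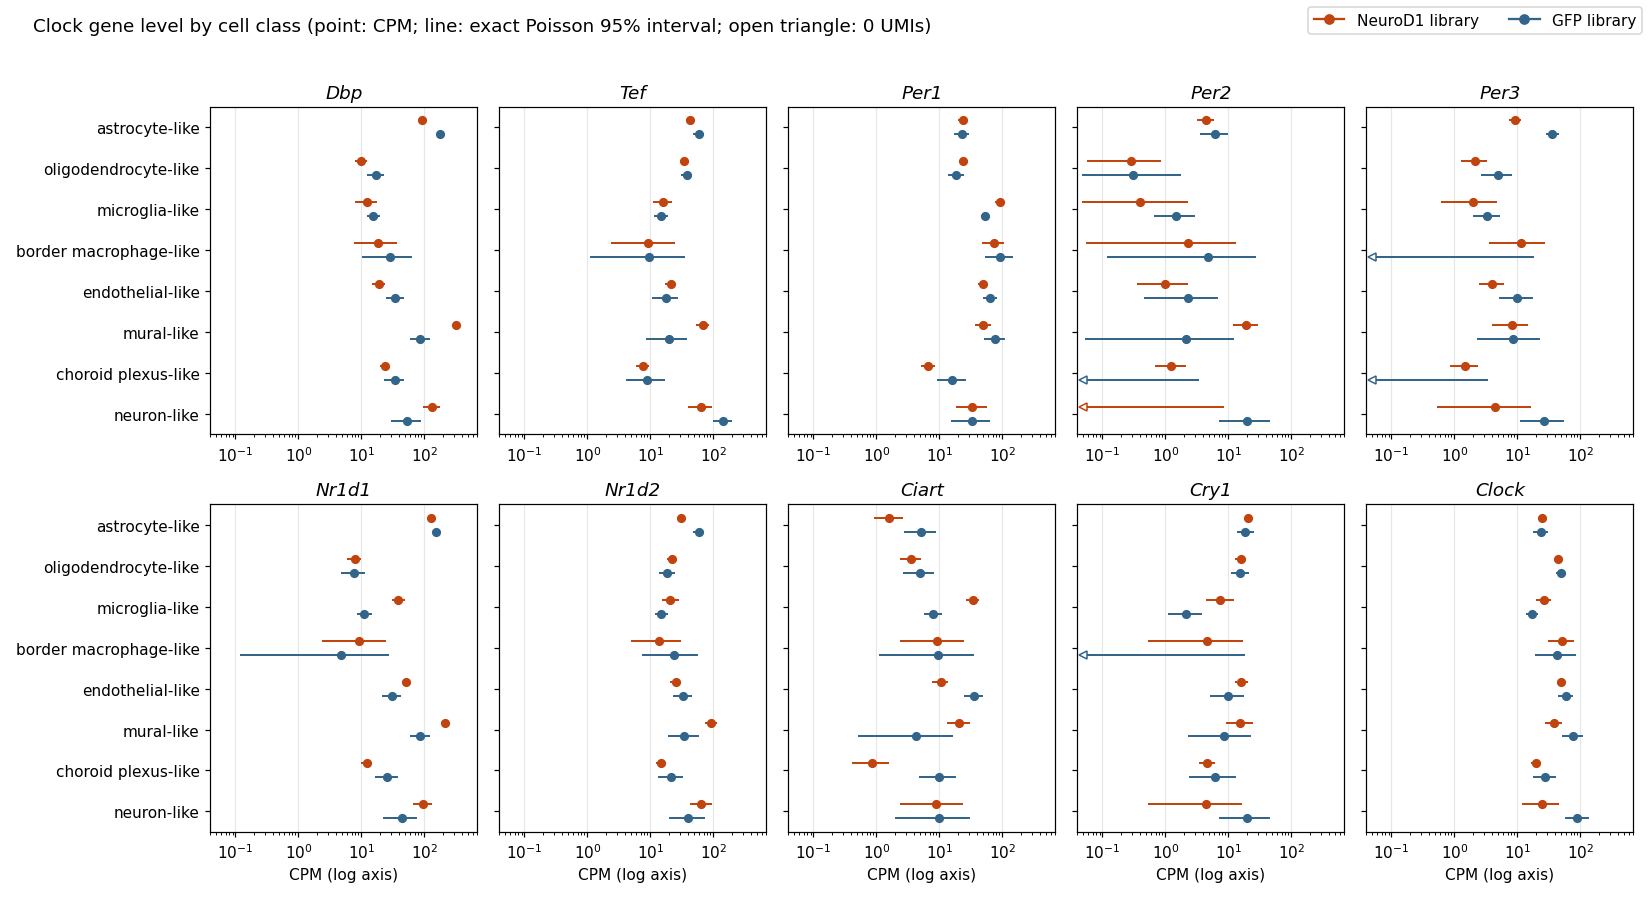
CPM (log axis) of each clock gene in 8 cell classes, NeuroD1 library in orange above GFP library in blue; lines are exact Poisson 95% intervals and an open triangle stands for 0 UMIs. Dbp was highest in mural-like cells of the NeuroD1 library (315 CPM) and in astrocyte-like cells of the GFP library (179 CPM).

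Per3 was the PER gene that differed most in astrocyte-like cells, and it was lower in the NeuroD1 library in each of the 4 classes with enough UMIs. Astrocyte-like cells had 110 UMIs (9.30 CPM) in the NeuroD1 library, against 106 UMIs (36.0 CPM) in the GFP library, a ratio of 0.258 (0.196 to 0.341). Endothelial-like cells had 24 and 13 UMIs (ratio 0.401, 0.196 to 0.858), and oligodendrocyte-like cells 22 and 16 UMIs (ratio 0.43, 0.216 to 0.877). In microglia-like cells the 5 and 20 UMIs gave an interval of 0.175 to 1.64, which held 1. Mural-like cells had 11 UMIs (8.10 CPM) in the NeuroD1 library, against 4 UMIs (8.66 CPM) in the GFP library, too few to be counted, so the class where Dbp was highest in the NeuroD1 library is not among those 4. Also too few were the 2 and 8 UMIs of neuron-like cells. Choroid plexus-like cells, with 19 and 0 UMIs, and border macrophage-like cells, with 5 and 0, went the other way. Neither of their intervals left out 1, so Per3 is not shown to be lower in every class. Within single clusters with at least 30 cells of each library, Per3 could be compared in 4. It was at least 1.5-fold lower in 1 of these clusters and higher in 0.

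Per1 is a PER gene that also responds quickly to cAMP and glucocorticoid signals. In astrocyte-like cells it stood at 23.5 CPM (NeuroD1), against 22.7 CPM (GFP), a ratio of 1.03 (0.789 to 1.37). Its ratio was 2.5 with free RNA subtracted, a setting that took off the gene's lowest class CPM in each library. For Per1 that was the CPM of choroid plexus-like cells, and free RNA itself was not measured. In microglia-like cells Per1 had 232 UMIs (91.5 CPM) in the NeuroD1 library, against 320 UMIs (52.8 CPM) in the GFP library. That is a ratio of 1.73 (1.46 to 2.06), and in the clusters that both libraries share it was within 1.5-fold, at 1.21. In choroid plexus-like cells it had 86 UMIs (6.68 CPM) in the NeuroD1 library, against 18 UMIs (16.0 CPM) in the GFP library, a ratio of 0.417 (0.249 to 0.738). Mural-like cells had 49.3 and 75.7 CPM, a ratio of 0.651 whose interval, 0.427 to 1.01, held 1, so Per1 did not share the direction of Dbp and Tef there. Per2 was scarce: astrocyte-like cells had 52 and 18 UMIs (ratio 0.72, 0.414 to 1.31), and mural-like cells 26 UMIs in the NeuroD1 library, against 1 in the GFP library (ratio 8.85, 1.45 to 363).

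Ciart, a repressor of CLOCK and BMAL1 also called Chrono, spanned ratios from 0.0874 to 4.76. Microglia-like cells had 86 UMIs (33.9 CPM) in the NeuroD1 library, against 48 UMIs (7.93 CPM) in the GFP library, a ratio of 4.28 (2.97 to 6.22). Endothelial-like cells had 63 UMIs (10.5 CPM) in the NeuroD1 library, against 46 UMIs (35.3 CPM) in the GFP library, a ratio of 0.298 (0.200 to 0.445). The class richest in Ciart was therefore microglia-like in the NeuroD1 library and endothelial-like in the GFP library. Smaller counts lay behind its other large ratios. Choroid plexus-like cells had 11 UMIs in 11 cells of the NeuroD1 library, against 11 UMIs in 6 cells of the GFP library, a ratio of 0.0874 (0.0344 to 0.222). Mural-like cells had 28 UMIs in the NeuroD1 library, against 2 in the GFP library, a ratio of 4.76 (1.20 to 41.3).

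Cry1, which encodes a CLOCK and BMAL1 repressor whose transcript peaks later than Dbp, and Clock, the activator, were at least 1.5-fold lower in 2 of their 14 pairs and higher in 4, against 20% and 20.4% of the pairs of all genes. In astrocyte-like cells Cry1 had 20.8 CPM in the NeuroD1 library, against 18.7 CPM in the GFP library, and Clock 24.5 and 23.8 CPM, while Dbp, Nr1d2, Per3 and Ciart were at least 1.5-fold lower in the same cells. Tef, Per1, Per2 and Nr1d1 were within 1.5-fold there, like Cry1 and Clock. Ciart had 19 and 15 UMIs there, and its ratio of 0.316 (0.152 to 0.667) ran from 0.304 to 0.984 over 10 alternatives of the processing. Clock was lower in mural-like cells, with 52 UMIs (38.3 CPM) in the NeuroD1 library, against 35 UMIs (75.7 CPM) in the GFP library, a ratio of 0.506 (0.323 to 0.80), opposite in direction to Dbp and Tef. Microglia-like cells had 19 and 13 UMIs of Cry1 (ratio 3.49, 1.63 to 7.69) and 67 and 104 UMIs of Clock (ratio 1.54, 1.11 to 2.11), which was 1.25 when scaled by the median gene ratio.

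Mural-like cells held the largest shift of the 10 genes. Of 9 genes with enough UMIs, 7 were at least 1.5-fold higher in the NeuroD1 library, against 2 at least 1.5-fold lower, against 20.8% and 13.1% of 8702 genes in these cells. Among the 7, Per2, Ciart and Cry1 had only 1, 2 and 4 UMIs in the GFP library. The interval of Cry1 (ratio 1.79, 0.603 to 7.16) held 1, as did that of Per1 among the 2 lower genes. The median log2 ratio of the 9 was 1.36, and that of all genes 0.07. The class joins 2 clusters, and both showed the same direction for Dbp, Tef, Nr1d1 and Nr1d2. Cluster 15, led by the smooth muscle genes Acta2 and Tagln, held 116 UMIs of Dbp (168 CPM) in the NeuroD1 library, against 5 UMIs (17.5 CPM) in the GFP library, a ratio of 9.59 (3.99 to 30.1). Cluster 20, led by the pericyte genes Vtn, Rgs5 and Kcnj8, held 312 UMIs of Dbp (467 CPM) in the NeuroD1 library, against 35 UMIs (198 CPM) in the GFP library, a ratio of 2.36 (1.66 to 3.45).

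Tef had a ratio of 3.14 (1.23 to 10.2) in cluster 15 and 3.64 (1.34 to 13.8) in cluster 20, and Nr1d1 1.87 (1.10 to 3.38) and 2.43 (1.58 to 3.91). The 10 markers of the class itself summed to 37944 CPM in the NeuroD1 library, against 29409 CPM in the GFP library, with none at 0. Median UMIs per mural-like cell were 1323 in the NeuroD1 library, against 777 in the GFP library. The 5 red blood cell markers summed to 3537 CPM in the NeuroD1 library, against 4.33 CPM in the GFP library in these cells, where 0 and 4 of the markers were at 0. The 9 choroid plexus markers summed to 18463 and 2538 CPM, with 0 and 3 at 0, and the 10 microglia markers to 187 and 2012 CPM, with none at 0 in either library. The part of depth or of RNA from other cells in these ratios was not tested.

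**Figure D3:**
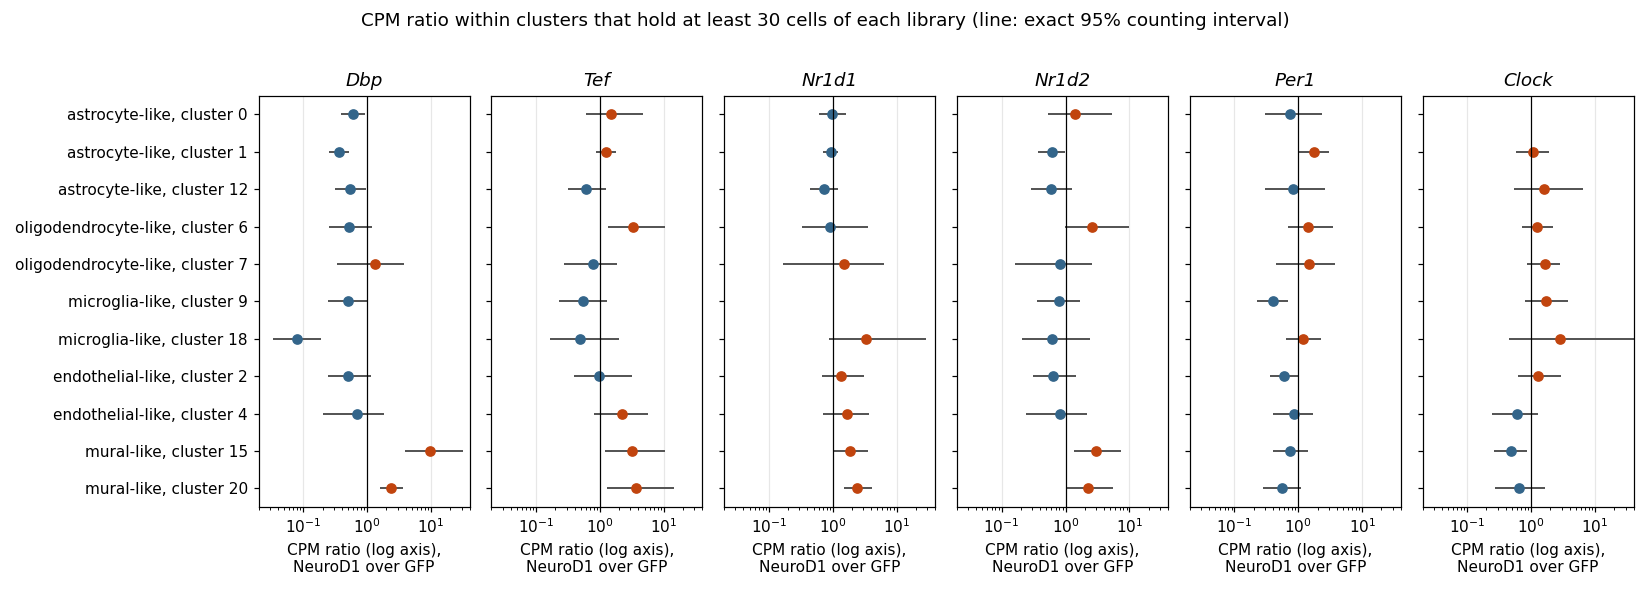
CPM ratio (log axis), NeuroD1 over GFP library, of 6 clock genes within clusters that hold at least 30 cells of each library; lines are exact 95% counting intervals. For Dbp, Tef, Nr1d1 and Nr1d2 both mural-like clusters lie above 1, and for Dbp the 3 astrocyte-like clusters lie below 1 (0.592, 0.366 and 0.546).

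Astrocyte-like cells, the class in which the GFAP promoter is mainly active, had 4 of 10 genes at least 1.5-fold lower and 0 higher, against 25.0% and 10.4% of 13314 genes. The median log2 ratio of the 10 genes was -0.46 and that of all genes -0.16. The libraries filled different clusters here too: cluster 1 held 389 NeuroD1 cells, against 1799 GFP cells, while cluster 0 held 1693 and 70, cluster 12 held 827 and 265, and cluster 16 held 770 and 28. Dbp was lower in the NeuroD1 library in each of the 3 clusters that held at least 30 cells of each library, with a ratio of 0.592 (0.406 to 0.896) in cluster 0, 0.366 (0.262 to 0.498) in cluster 1 and 0.546 (0.327 to 0.94) in cluster 12. Per3 had a ratio of 0.49 (0.245 to 0.896) in cluster 1. In cluster 0 it had 65 UMIs from 1693 cells of the NeuroD1 library, against 1 UMI from 70 cells of the GFP library, too few for a direction. Tef did not follow Dbp, at 1.49, 1.25 and 0.616 in those clusters, and each interval held 1. Median UMIs per cell were 2471 in the NeuroD1 library, against 1146 in the GFP library; the 9 choroid plexus markers summed to 10977 and 2397 CPM and the 10 microglia markers to 164 and 1620 CPM, with none at 0 in either library. The 5 red blood cell markers summed to 6851 and 4.75 CPM, with 0 and 2 at 0, and the part of depth, clusters and other RNA was not tested.

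Microglia-like cells had 5 of 9 genes at least 1.5-fold higher and 1 lower, against 35.1% and 18.1% of 11958 genes, so a large share of all genes was higher there. The median log2 ratio was 0.62 for the 9 genes and 0.31 for all genes. The libraries filled different clusters: clusters 10 and 19 held 1586 and 1902 of the 4200 microglia-like cells of the GFP library and 10 cells each of the NeuroD1 library. Over the clusters with at least 30 cells of each library, the ratio of Ciart was 2.30 instead of 4.28 and that of Dbp 0.241 instead of 0.787. Those clusters were still filled unevenly, with 563 NeuroD1 and 641 GFP cells in cluster 9 and 649 and 71 in cluster 18. Within single clusters of that size, over all classes, Ciart could be compared in 6. It was at least 1.5-fold higher in 0 of these and lower in 4, so its rise in the class was not seen within a single cluster. Cluster 18 had 14 UMIs of Dbp (8.39 CPM) in the NeuroD1 library, against 13 UMIs (106 CPM) in the GFP library, a ratio of 0.0791 (0.0345 to 0.183), and cluster 9 a ratio of 0.50 (0.249 to 0.973). Per1, with a ratio of 1.73 in the class, was at 0.399 (0.23 to 0.674) in cluster 9 and 1.16 (0.665 to 2.22) in cluster 18. Median UMIs per microglia-like cell were 1810 and 1204, ribosomal protein genes took 3.44% and 8.88% of the UMIs, and the 9 choroid plexus markers summed to 15610 and 2573 CPM, with none at 0 in either library; their part was not tested.

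In choroid plexus-like cells 3 of 8 genes were at least 1.5-fold lower and 0 higher, against 32.1% and 11.5% of 11845 genes. In endothelial-like cells 3 of 9 were lower and 2 higher, against 12.3% and 23.4% of 11687 genes. Oligodendrocyte-like cells had 2 of 9 lower and 0 higher, against 15.2% and 12.8% of 12168 genes. Dbp and Per3 were the 2 genes in oligodendrocyte-like cells, and Dbp, Per3 and Ciart the 3 in endothelial-like cells, where Nr1d1 and Cry1 were the higher ones. Haemoglobin genes took 1.89% of the endothelial-like UMIs in the NeuroD1 library, against 0.0069% in the GFP library. Clusters differed as well, with 3021 and 237 cells in oligodendrocyte-like cluster 6 but 134 and 2038 in cluster 7, and with 1721 and 127 cells in endothelial-like cluster 2 but 196 and 881 in cluster 4. Oligodendrocyte-like cells had medians of 2939 and 1277 UMIs, and the 10 microglia markers summed there to 111 and 1284 CPM, with none at 0; the endothelial-like sums were 171 and 1573 CPM, with none at 0. The part of these differences was not tested. Choroid plexus-like cells had a median of 5412 UMIs in the NeuroD1 library, against 1376 in the GFP library. Ttr alone took 457465 CPM there in the NeuroD1 library, against 292283 CPM in the GFP library, which bears on the CPM of every other gene. The median log2 ratio of the 8 clock genes in that class was -0.56, and that of all genes -0.36. When every cell was thinned to 500 UMIs, the ratio of Nr1d1 in that class was 0.124 and that of Dbp 0.254.

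Border macrophage-like cells had only Per1 (32 and 19 UMIs) and Clock (22 and 9 UMIs) in reach, and neither was past 1.5-fold, against 17.8% of 4555 genes lower and 20.7% higher. Neuron-like cells had 2 of 6 genes lower (Tef and Clock) and 3 higher (Dbp, Nr1d1 and Nr1d2), against 24.6% and 36.8% of 6880 genes. Different clusters made up this class: cluster 11, whose leading genes include Ndnf and Reln, held 165 NeuroD1 cells, against 74 GFP cells, and cluster 24, with Thy1 and Slc17a7 in front, held 7 and 125. Within cluster 11 the ratio of Dbp was 1.38 (0.617 to 3.65) and that of Tef 0.805 (0.338 to 2.20). Thinned to 500 UMIs per cell, Nr1d2 had a ratio of 0.694 in the class, on the other side of 1 from its 1.62. Mitochondrial genes took 1.44% of the UMIs in the NeuroD1 library, against 8.13% in the GFP library. Both intervals also held the ratio of the whole class, and the part of the different clusters was not tested.

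The lists of immediate early genes and of glucocorticoid response genes were counted in the same cells, to be read against the shares of all genes given above for each class, since Per1 and other clock genes also respond to such signals. In microglia-like cells 19 of 22 immediate early genes were at least 1.5-fold higher and 1 lower, and in neuron-like cells 12 of 18 higher and 2 lower. In choroid plexus-like cells 16 of 19 were lower and 0 higher, and in astrocyte-like cells 10 of 19 lower and 2 higher. Mural-like cells, where Dbp, Tef, Nr1d1 and Nr1d2 were higher, had 4 of 20 immediate early genes higher and 3 lower, with a median log2 ratio of 0.08. Glucocorticoid response genes numbered 2 of 12 higher and 1 lower in mural-like cells, 6 of 12 higher and 1 lower in microglia-like cells, 7 of 13 lower in choroid plexus-like cells, and 5 of 16 lower and 1 higher in astrocyte-like cells. Their part in the clock values was not tested.

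Another 20 clock genes were read beside these 10, and 111 of their gene and class pairs had enough UMIs. In the NeuroD1 library 23 pairs were at least 1.5-fold lower and 16 at least 1.5-fold higher, against 20% and 20.4% of the pairs of all genes, with a median log2 ratio of -0.06. Hlf, the third PAR bZIP factor, had 210 UMIs (155 CPM) in the NeuroD1 library, against 37 UMIs (80.1 CPM) in the GFP library in mural-like cells, a ratio of 1.93 (1.36 to 2.82), on the same side as Dbp and Tef. Nfil3, which represses at the same D-box sites and peaks opposite to Dbp, had 33 UMIs (24.3 CPM) in the NeuroD1 library, against 27 UMIs (58.4 CPM) in the GFP library in those cells, a ratio of 0.416 (0.243 to 0.719). Arntl, the partner of Clock, had 27 and 9 UMIs there and a ratio of 1.02 (0.466 to 2.47).

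In astrocyte-like cells 5 of 17 of these other clock genes were lower and 0 higher, against 25.0% and 10.4% of all genes; the repressor Cry2 had 35.0 CPM in the NeuroD1 library, against 54.6 CPM in the GFP library (ratio 0.64, 0.533 to 0.773), and Arntl a ratio of 1.10 (0.887 to 1.36). In microglia-like cells 8 of 16 were higher and 3 lower, against 35.1% and 18.1%. Arntl had 28 UMIs (11 CPM) in the NeuroD1 library, against 18 UMIs (2.97 CPM) in the GFP library, a ratio of 3.71 (1.98 to 7.13), and Nfil3 39 and 313 UMIs (15.4 and 51.7 CPM), a ratio of 0.297 (0.208 to 0.416). Arntl, which Nr1d1 represses, and Nr1d1 were thus both higher in microglia-like cells of the NeuroD1 library. Choroid plexus-like cells had 7 of 16 lower and 1 higher, against 32.1% and 11.5%, with Hlf at a ratio of 0.289 (0.179 to 0.482).

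**Figure D4:**
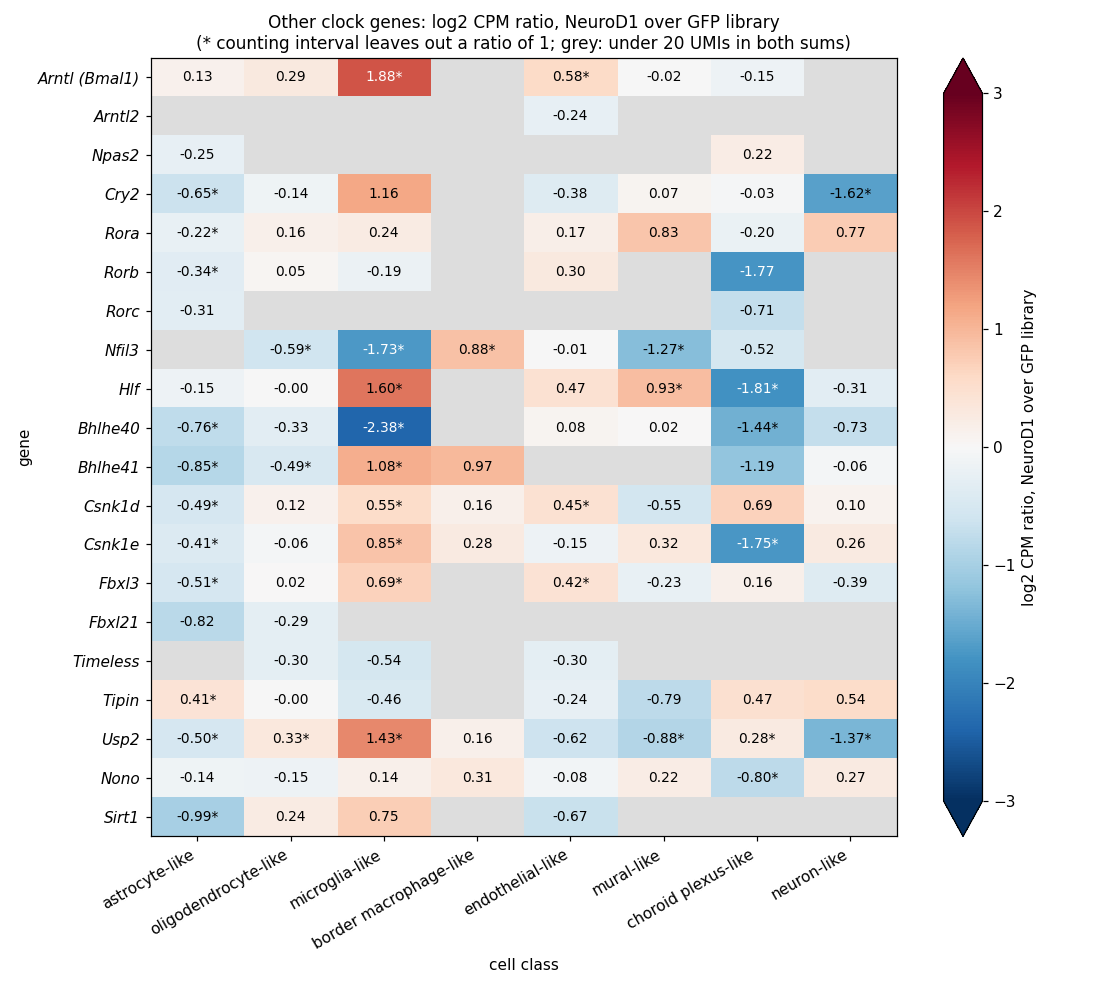
Log2 of the CPM ratio (NeuroD1 over GFP library) for 20 other clock genes (down the page) in 8 cell classes (across), marked like the plot of the 10 genes. In mural-like cells Hlf (0.93) lies above 0 and Nfil3 (-1.27) below it, and in microglia-like cells Arntl (1.88) lies above 0.

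Over the 16 class sums (8 classes in each library), the log2 CPM of Dbp ran close with some clock genes of its phase and not with others. Pearson's r with Dbp was 0.89 for Nr1d2, 0.84 for Nr1d1, 0.83 for Hlf and 0.71 for Cry2. It was 0.66 for Per2, 0.57 for Tef, 0.52 for Per3, -0.02 for Per1, 0.03 for Ciart and -0.01 for Clock. Npas2, which peaks opposite to Dbp, had 0.67. Hlf, Cry2, Per2, Per3 and Npas2 had 0 UMIs in at least 1 class sum, and Nr1d1 had 1 UMI in its lowest. Among 843 genes with at least 20 UMIs in every class sum, the genes most like Dbp included Idh3b (0.87), Gpi1 (0.85), Oat (0.83) and Slc25a3 (0.77). Idh3b and Gpi1, which are outside the clock lists, thus had a higher r than Nr1d1 and Hlf. Dbp, with 6 UMIs in its lowest class sum, and the clock genes named here did not meet that limit of 20 UMIs. The r values of the clock genes and of the 843 genes therefore do not rest on like counts. The 16 points share 2 libraries and their depth, so these are descriptions and carry no p.

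The class with the highest level differed between the libraries for each of the 10 genes, though for several its gap to the next class lay within counting error. Dbp ran mural-, neuron-, astrocyte-, choroid plexus-, endothelial-, border macrophage-, microglia- and oligodendrocyte-like in the NeuroD1 library, highest first; the gaps between the first 4 lay outside counting error, the later ones did not. In the GFP library it ran astrocyte-, mural-, neuron-, endothelial-, choroid plexus-, border macrophage-, oligodendrocyte- and microglia-like, and only the first gap, of 2.07-fold (1.5 to 2.93), lay outside counting error. Nr1d1 was highest in mural-like cells of the NeuroD1 library, 1.66-fold above astrocyte-like cells (1.46 to 1.89), and in astrocyte-like cells of the GFP library, 1.78-fold above mural-like cells (1.29 to 2.53). Clock ranged from 19.6 to 50.3 CPM over the classes of the NeuroD1 library and from 17.2 to 90.3 CPM over those of the GFP library. These ranges were narrower than those of Dbp, at 9.98 to 315 and 15.5 to 179 CPM. In the GFP library Nr1d2 ranged from 15 to 58.4 CPM, so Clock was not flatter there than every gene that peaks with Dbp.

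Of 3141 genes with enough UMIs in all 8 classes, 12 were at least 1.5-fold lower in the NeuroD1 library in every class and 5 at least 1.5-fold higher. The 12 included the vector GFP, Cst7, Trem2, Psenen and Cd68, and the 5 were Atp5g1, Rsrp1, Vcp, Dynll1 and Ttr. Trem2 is a microglia marker and Ttr a choroid plexus marker, and both marker sets also differed outside their own class. In endothelial-like cells the microglia markers summed to 171 CPM (NeuroD1) and 1573 CPM (GFP), and the choroid plexus markers to 11124 and 2469 CPM. The part of RNA from other cells in these genes was not tested. Of the 10 clock genes, Per1 and Clock alone had enough UMIs in all 8 classes, and their ratios ran from 0.417 to 1.73 and from 0.273 to 1.54.

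Several of the genes share genomic ground with a neighbour, and the sources used here do not say whether the counting used strand. Nr1d1 overlaps Thra on the opposite strand; Thra had a ratio of 1.03 (0.823 to 1.31) in mural-like and 1.28 (0.92 to 1.76) in microglia-like cells, against 2.45 and 3.44 for Nr1d1. Dbp overlaps Sphk2 on the opposite strand, which had 36 UMIs in the NeuroD1 library, against 7 in the GFP library in mural-like cells (ratio 1.75, 0.768 to 4.66) and a ratio of 0.848 (0.609 to 1.20) in astrocyte-like cells. Per3 overlaps Camta1 on the same strand, whose ratio in astrocyte-like cells was 1.41 (1.13 to 1.78), on the other side of 1 from that of Per3. Ciart overlaps the antisense transcript C920021L13Rik, with 3 and 18 UMIs in microglia-like cells.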

How the data were processed

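Papain was used to dissociate the hippocampus, and beads in a microwell chip captured the RNA of the cells, per the labels' protocols; another label names 10x Genomics, and it is not settled here which platform was used. The authors deposited whole-number UMI counts per gene and barcode; FastQC, fastp, cutadapt, STAR, featureCounts and genome build mm39 are named in the submitters' processing notes, without versions or roles, and the sources used here do not say whether counting used strand. The deposited counts total 51236521 UMIs (NeuroD1) and 17504950 UMIs (GFP), from 13402 and 11739 barcodes with at least 500 UMIs.

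A kept cell had at least 200 genes and no more than 20% of its UMIs from mitochondrial genes, and 485 and 556 cells that Scrublet called doublets were left out. Both libraries were clustered together (scanpy 1.11.5, 3000 variable genes, 30 principal components, Leiden resolution 1.0), without clock and immediate early genes among the variable genes, in 25 clusters. A cluster was named from the class with the most markers among its 60 leading genes (at least 3, and at least 2 times the next class); this scoring rule was set after the data were seen, and 2 clusters stayed unnamed. Counts were summed per class, and a gene was compared where both sums together held at least 20 UMIs. Ratios have exact conditional binomial 95% intervals and CPM exact Poisson ones; PCR and cell-to-cell spread are not in them. The interval was tested on simulated counts. A difference of at least 1.5-fold was counted as lower or higher, with no test, since each group had 1 library.

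All 10 clock genes and the 20 other clock genes may be named; genes alike in every class are those past 1.5-fold in 1 direction in all 8 classes, and genes like Dbp the 5 with the highest r, of which 1 is not reported here. The genes and lists were chosen with earlier results of these data known. Promoter sequences are RefSeq windows of GRCm38.p6, used for sequence only. Overlapping neighbours were read from GENCODE M21 on GRCm38.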

Additional observations from a re-analysis of the deposited data

Results flagged for a closer look

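Each of these clock genes was at least 1.5-fold lower in the NeuroD1 library in at least 1 class and at least 1.5-fold higher in another, and the classes with its lowest and highest ratio are given; the differences between classes were not tested. Dbp had a CPM ratio, NeuroD1 over GFP library, of 0.505 in astrocyte-like and 3.64 in mural-like cells. Tef had 0.436 in neuron-like and 3.52 in mural-like cells, and the neuron-like ratio was 0.805 in the shared cluster. The ratio of Per1 was 0.417 in choroid plexus-like and 1.73 in microglia-like cells, which was within 1.5-fold, at 1.21, in shared clusters. Nr1d1 had 0.473 in choroid plexus-like and 3.44 in microglia-like cells. The ratio of Nr1d2 was 0.531 in astrocyte-like and 2.64 in mural-like cells. Ciart had 0.0874 in choroid plexus-like and 4.76 in mural-like cells, from 11 and 11 UMIs in choroid plexus-like and 28 and 2 UMIs in mural-like cells. Clock had 0.273 in neuron-like and 1.54 in microglia-like cells, which was 1.25 when scaled by the median gene ratio. The libraries filled different clusters of the neuron-like class, as described with that class.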

How the results depend on the processing

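No paired analysis was possible because each group had 1 library. The counts of 17 lower and 17 higher pairs came to 7 and 8 of 36 pairs when cells were thinned to 500 UMIs, and to 10 and 11 at a 2-fold threshold; fewer pairs could pass in either case. With at least 50 UMIs there were 11 lower of 49 pairs. Scaling by the median gene ratio gave 18 lower and 13 higher, and leaving out the neuron-like class, an alternative chosen after seeing the data, gave 15 and 14. The median log2 ratio of -0.31 ran from -0.40 to -0.10 over the alternatives, inside its order-based interval of -0.55 to 0.23, which holds 0. Nr1d2 in neuron-like cells reversed to a ratio of 0.694 when thinned, from 1.62; the cause was not tested. Of the other gene and class ratios, thinning moved 14, subtracting free RNA 19, the shared clusters alone 7 and a mean over cells 4 beyond their counting interval. The free RNA setting took off each gene's lowest class CPM in each library and did not measure free RNA. Per1 in microglia-like cells moved in 4 of 10 alternatives, from 1.21 in shared clusters to 2.3 with free RNA subtracted, and Per1 in astrocyte-like cells came to 2.5 with free RNA subtracted. Clock in microglia-like cells ran from 1.25 to 1.57. In addition, Ciart in choroid plexus-like cells came to 0.23 as a mean over cells, Nr1d1 in microglia-like cells to 1.7 thinned, and Clock in neuron-like cells to 0.868 thinned. The ratio of Dbp ran from 0.482 to 0.56 in astrocyte-like and from 3.36 to 4.30 in mural-like cells over 10 alternatives each. Ratios on under about 20 UMIs are limited by counting error.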

Other observations

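Summed over all kept cells of a library, the ratios of the 10 clock genes ran from 0.41 to 1.42, a narrower span than over the classes. A gene could still lie further from 1 there than in a class, such as Per1 at 0.702, against 1.03 in astrocyte-like cells. Dbp stood at 47.3 CPM in the NeuroD1 library, against 51.5 CPM in the GFP library (ratio 0.917, 0.847 to 0.994), and Clock at 32.1 and 32.7 CPM (ratio 0.982, 0.889 to 1.09). Per3 was the lowest of the 10 in this sum, with 4.23 and 10.3 CPM and a ratio of 0.41 (0.333 to 0.506), and Cry1 the highest, with 13.2 and 9.27 CPM and a ratio of 1.42 (1.19 to 1.71). The cells of each class made up different shares of the libraries, so these sums mix the class values above. Among classes too small to compare, T or NK lymphocyte-like cells had 12 UMIs of Nr1d2 in 58 cells of the NeuroD1 library and 1 UMI in 121 cells of the GFP library.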
